A study of Mus musculus with 4 samples.

Results

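The 10 genes described here handle iron or break down heme: *Hmox1*, *Spic*, *Slc40a1*, *Tfrc*, *Slc11a2*, *Steap4*, *Slc11a1*, *Fth1*, *Ftl1* and *Ncoa4*. They were chosen by name and all 10 were found among the 15298 genes of the deposited table. The question put to them was whether the hemoglobin RNA present in libraries of stimulated mice was accompanied by a difference in genes of iron and heme handling. Macrophages of the peritoneal cavity were taken from female BALB/c mice, 6 weeks of age, and sorted as CD11b+ F4/80+ Ly6G- cells. Microcurrent stimulation (MCS) was given to live, isoflurane-anesthetized mice through pads on abdomen and back, at zeitgeber time (ZT) 2, early in the light phase, as 15 min of bidirectional pulses of 300 μA and 400 Hz. Control mice received the same procedure without current. RNA was sequenced from control and MCS mice right after the stimulation, at ZT2, and 12 h later, at ZT14, with 1 library per condition and 4 libraries in all. Without replicates, no value has an SD, and no comparison of 2 conditions has a replicate check. How many mice a library stands for is not given. All 4 groups share anesthesia, strain and the sort, and no group without anesthesia was among them.

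Macrophages that engulf red blood cells split heme with heme oxygenase, keep the released iron in ferritin and return it to the blood through ferroportin. Iron enters by the transferrin receptor and is moved across endosomal and phagosomal membranes by divalent metal transporters. Heme relieves repression of *Hmox1* and of ferritin genes by the transcription factor BACH1, whereas iron itself acts mostly after transcription, through iron regulatory proteins that bind hairpins in the messenger RNA, hold back translation of ferritin and ferroportin and protect transferrin receptor RNA from decay. RNA levels, as measured here, therefore cover only the transcript side of this system.

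These hairpins, the iron-responsive elements, are shown because iron acts on members of this group through them. A pattern of C, 5 bases, the loop CAGTGN and 5 bases able to pair with the first 5 (Watson-Crick or G-T pairs) was searched on the transcript strand in the longest protein-coding GENCODE M21 transcript of each gene (GRCm38/mm10). It was found in 4 of 10 members and in 210 of 13810 genes of the table with such a transcript (1.52%). Capitals mark the loop of 6 bases, in 5′ to 3′ direction.
Fth1, 5′ UTR: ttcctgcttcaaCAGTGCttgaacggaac
Ftl1, 5′ UTR: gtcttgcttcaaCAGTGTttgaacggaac
Slc40a1, 5′ UTR: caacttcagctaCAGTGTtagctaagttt
Tfrc, 3′ UTR, first site: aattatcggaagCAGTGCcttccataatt
Tfrc, 3′ UTR, last site: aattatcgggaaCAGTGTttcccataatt
The *Fth1* site lies at chr19:9982732-9982760 on the plus strand and the *Ftl1* site at chr7:45459779-45459807 on the minus strand. The *Slc40a1* site lies at chr1:45925465-45925493 on the minus strand, in exon 1. *Tfrc* held 4 such sites in exon 19, of which the first is at chr16:32631219-32631247 and the last at chr16:32631710-32631738, both on the plus strand. *Alas2*, the erythroid enzyme that begins heme synthesis, held 1 site in its 5′ UTR. An isoform of *Slc11a2* is known to carry such an element, and its missing match says only that these letters are not in the transcript searched. A match is a description of letters, not of binding in these cells.

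Reads recovered from the deposited CPM, read counts scaled to a common library size, totaled 8658191 and 9217493 in the control libraries and 8365590 and 9953243 in the MCS libraries, ZT2 first. A single read equaled between 0.102 and 0.116 CPM, so a gene with 0 reads may have had up to 3 reads, or 0.307 to 0.348 CPM. *Itgam* and *Adgre1*, which encode the sort markers CD11b and F4/80, lay between 4214 and 5162 CPM and between 1086 and 1900 CPM. The 6 B cell markers summed to between 939 and 1381 CPM, lowest in MCS at ZT14. Log2 ratios were computed after adding 0.1 CPM, and their 95% intervals are exact binomial (Clopper-Pearson) intervals on reads, which cover counting error only and compare libraries. Genes more than 2-fold apart, a log2 ratio beyond 1 in either direction, were called changed where the log2 of their mean CPM was above 0.

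Hemoglobin RNA differed between the MCS and control libraries at both times. The 5 hemoglobin genes of the table summed to 2.31 CPM at ZT2 and 0.439 CPM at ZT14 without current, and 35.2 CPM at ZT2 and 110 CPM at ZT14 with MCS, or 20, 4, 303 and 1076 reads. The log2 ratio of MCS to control was 3.87 at ZT2 (95% interval 3.28 to 4.66) and 7.67 at ZT14 (6.61 to 9.85). Both MCS libraries thus lay above both control libraries. The alpha chain gene *Hba-a1* had 22.0 and 19.6 CPM in MCS at ZT2 and ZT14 and the beta chain gene *Hbb-b1* had 12.6 and 37.4 CPM. *Hba-a2* had 49.5 CPM in MCS at ZT14 and 0 reads in the other 3 libraries, which is at least 150-fold higher than 3 reads in control at ZT14. This fold is for the row of *Hba-a2* alone. *Hba-a1* had 190 reads in the MCS library of ZT2, where *Hba-a2* had 0. How reads were divided between *Hba-a1* and *Hba-a2* was not tested, so a difference particular to *Hba-a2* is uncertain. *Hbb-b2* and *Hbb-bt* had equal values in every library, at most 1.74 CPM. edgeR's quasi-likelihood test used additive terms for time and MCS over the 4 libraries and assumes an equal MCS effect at both times. Its MCS term had a log2 fold change of 4.55 for *Hba-a1* and 5.67 for *Hbb-b1*. The hemoglobin genes were chosen with earlier results of these data known, so no p-value is given for them.

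Other genes of red blood cell development did not show such values. *Slc25a37*, which encodes the mitochondrial iron importer mitoferrin-1, had 85.3 and 119 CPM in control and 105 and 93.9 CPM in MCS, at ZT2 and ZT14. *Alas2* had 0.924 and 0.879 CPM in control and 1.51 and 1.53 CPM in MCS, from 8, 8, 13 and 15 reads. Both MCS libraries thus lay above both controls, with log2 ratios of 0.65 at ZT2 and 0.74 at ZT14. These were under the criterion of 1, and the counting intervals of its levels overlapped. *Gata1*, an erythroid transcription factor, stayed between 1.65 and 2.97 CPM. Of the 7 genes of this list in the table, 4 had a log2 mean CPM above 0 at ZT2 and 3 at ZT14. *Ermap*, a red cell membrane protein gene, was counted as changed at ZT2, with 1.85 CPM in control and 0.348 CPM in MCS. None was at ZT14. Over all genes the shares were 2.21% at ZT2 and 3.40% at ZT14. Bulk RNA cannot tell fewer cells of a type from less RNA per cell.

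**Figure D1:**
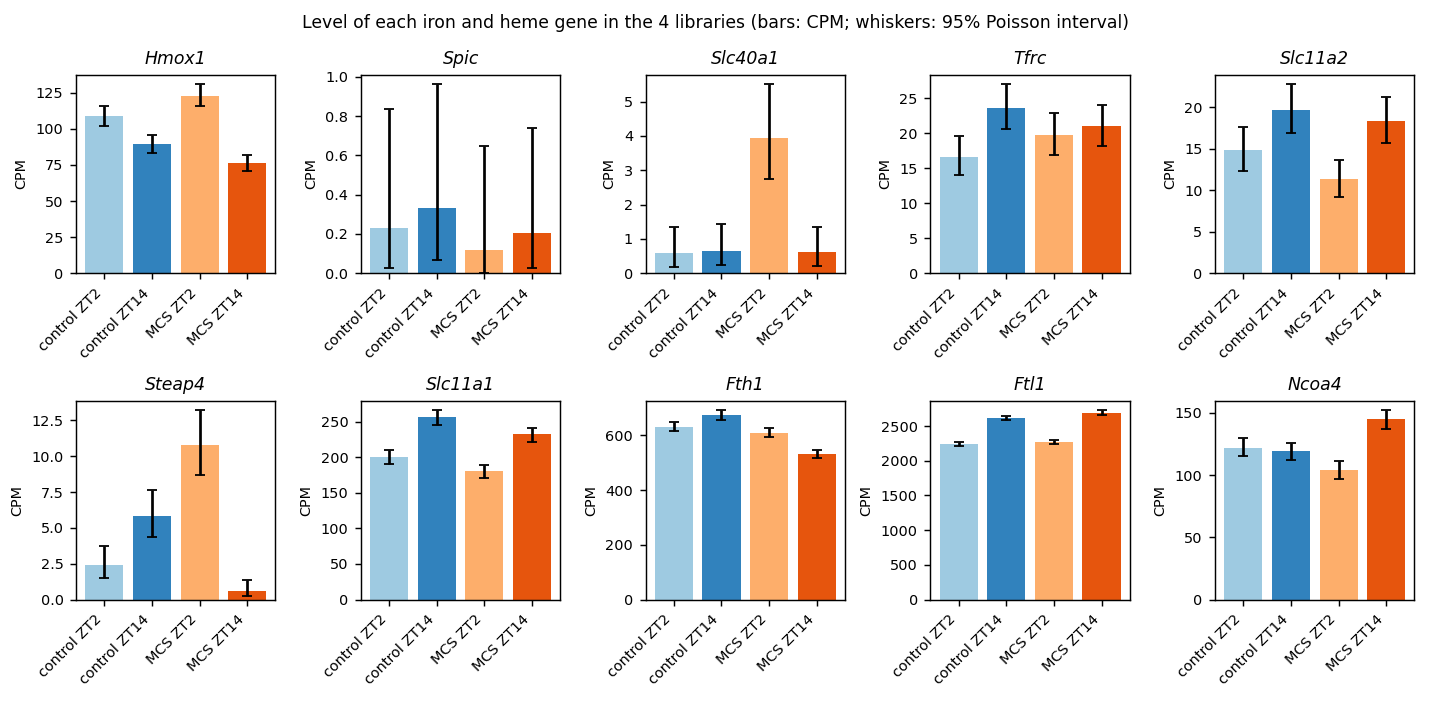
CPM of each iron and heme gene in the 4 libraries, 1 library per bar, with 95% Poisson intervals of the read count as whiskers and an axis from 0 in each panel. *Steap4* and *Slc40a1* were highest in MCS at ZT2, at 10.8 and 3.94 CPM, and the intervals of *Spic* overlapped in all 4 libraries.

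Heme breakdown was represented by *Hmox1* (chr8:75093621-75100589), which encodes the inducible heme oxygenase that opens the heme ring and frees its iron. *Hmox1* had levels of 109 CPM at ZT2 and 89.5 CPM at ZT14 without current, and 123 CPM at ZT2 and 76.1 CPM at ZT14 with MCS. It was highest in MCS at ZT2 and lowest in MCS at ZT14, the library with most hemoglobin RNA. The log2 ratio of MCS to control was 0.18 at ZT2 (95% interval 0.05 to 0.31) and -0.23 at ZT14 (-0.38 to -0.09), well inside the criterion of 1 at both times. In the edgeR test the MCS term of *Hmox1* was -0.03 (unadjusted p = 0.875, adjusted p = 1).

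*Spic*, a transcription factor gene that heme induces and that defines iron-recycling macrophages of the red pulp, was near the limit of detection. It had 2 and 3 reads in the control libraries and 1 and 2 reads in the MCS libraries, ZT2 first, which is 0.231, 0.330, 0.116 and 0.205 CPM. No fold is given for it, since every library was at or under 3 reads. *Vcam1*, another red pulp marker, had at most 2 reads in any library, whereas *Cd5l* and *Mertk*, which peritoneal macrophages also express, had 283 to 452 CPM and 97.7 to 188 CPM. *Cd5l* was lower with MCS at ZT2, with a log2 ratio of -0.36, and higher at ZT14, with 0.68.

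Iron export was represented by *Slc40a1* (chr1:45908068-45926523), the gene of ferroportin, the only known cellular iron exporter. *Slc40a1* had levels of 0.577 CPM at ZT2 and 0.659 CPM at ZT14 without current, and 3.94 CPM at ZT2 and 0.614 CPM at ZT14 with MCS, from 5, 6, 34 and 6 reads. MCS at ZT2 stood apart and the other 3 libraries were level. The log2 ratio of MCS to control was 2.58 at ZT2 (95% interval 1.41 to 4.48) and -0.09 at ZT14 (-2.01 to 1.80), where the gene was under the minimum level. At ZT14 a difference inside that interval was not detectable at this depth.

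Iron uptake was represented by *Tfrc*, *Slc11a2* and *Steap4*. *Tfrc* (chr16:32608920-32632794), the gene of transferrin receptor 1, had levels of 16.6 CPM at ZT2 and 23.6 CPM at ZT14 without current, and 19.7 CPM at ZT2 and 21.0 CPM at ZT14 with MCS. Both MCS values lay between the control values. Its log2 ratio of MCS to control was 0.24 at ZT2 (95% interval -0.08 to 0.58) and -0.17 at ZT14 (-0.46 to 0.11), and both intervals held 0. *Slc11a2* (chr15:100387898-100425072), which encodes the transporter DMT1 that passes iron out of endosomes, had levels of 14.8 CPM at ZT2 and 19.7 CPM at ZT14 without current, and 11.3 CPM at ZT2 and 18.3 CPM at ZT14 with MCS. It was lower at ZT2 than at ZT14 with and without MCS. The log2 ratio of MCS to control was -0.39 at ZT2 (95% interval -0.79 to -0.00) and -0.10 at ZT14 (-0.41 to 0.20).

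*Steap4* (chr5:7960457-7982213), which encodes a metalloreductase that reduces iron and copper before uptake, had the widest range of the 10 genes. It had levels of 2.43 CPM at ZT2 and 5.82 CPM at ZT14 without current, and 10.8 CPM at ZT2 and 0.614 CPM at ZT14 with MCS, from 21, 53, 93 and 6 reads. The highest and the lowest library were both MCS, 15.3-fold apart. The log2 ratio of MCS to control was 2.11 at ZT2 (95% interval 1.46 to 2.91) and -3.05 at ZT14 (-4.76 to -2.03), so MCS was above control at the first time and below it at the second. The edgeR test, which assumes an equal effect at both times, gave an MCS term of 0.01 for *Steap4* (unadjusted p = 0.991, adjusted p = 1).

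*Slc11a1* (chr1:74375195-74386062) encodes NRAMP1, which pumps iron and manganese out of the phagosome of macrophages. It had levels of 200 CPM at ZT2 and 256 CPM at ZT14 without current, and 180 CPM at ZT2 and 232 CPM at ZT14 with MCS. MCS was a little below control at both times, with log2 ratios of -0.15 at ZT2 (95% interval -0.25 to -0.05) and -0.14 at ZT14 (-0.23 to -0.06). The edgeR MCS term was -0.15 (unadjusted p = 0.398, adjusted p = 1).

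Iron storage rests on ferritin, a shell of heavy chains, which oxidize iron, and light chains, which help it to form a core. The heavy chain gene *Fth1* (chr19:9980598-9985098) had levels of 632 CPM at ZT2 and 674 CPM at ZT14 without current, and 610 CPM at ZT2 and 533 CPM at ZT14 with MCS. Its lowest value was in MCS at ZT14, where the log2 ratio was -0.34 (95% interval -0.39 to -0.29), against -0.05 at ZT2 (-0.11 to 0.00). The light chain gene *Ftl1* (chr7:45457944-45459884) had levels of 2241 CPM at ZT2 and 2618 CPM at ZT14 without current, and 2269 CPM at ZT2 and 2695 CPM at ZT14 with MCS. It was higher at ZT14 with and without MCS, and its log2 ratio of MCS to control was 0.02 at ZT2 (95% interval -0.01 to 0.05) and 0.04 at ZT14 (0.02 to 0.07). The 2 chains therefore differed in sign at ZT14. *Ftl1* has 5 near-identical pseudogenes in the annotation, up to 99.6% identical over 910 bases, none of which has a row in the table, so how their reads were assigned is uncertain.

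*Ncoa4* (chr14:32159865-32179855) encodes the receptor that carries ferritin to lysosomes, where its iron is released. It had levels of 122 CPM at ZT2 and 119 CPM at ZT14 without current, and 104 CPM at ZT2 and 145 CPM at ZT14 with MCS. The 2 control libraries were alike, with MCS below them at ZT2 and above them at ZT14. The log2 ratio of MCS to control was -0.24 at ZT2 (95% interval -0.37 to -0.11) and 0.29 at ZT14 (0.17 to 0.40).

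Per kb of the longest coding transcript, the order of the levels was much the same in the 4 libraries. *Ftl1* led with a mean of 2537 CPM per kb, followed by *Fth1* with 410, *Slc11a1* with 93.6, *Hmox1* with 63.4 and *Ncoa4* with 30.1 CPM per kb. *Tfrc* and *Slc11a2*, with means of 4.14 and 3.62 CPM per kb, were neighbours whose counting intervals overlapped in both control libraries and in MCS at ZT14. *Steap4* had a mean of 1.56, *Slc40a1* of 0.430 and *Spic* of 0.125 CPM per kb. The order differed in MCS at ZT2 alone, where *Hmox1*, at 78.5 CPM per kb, stood level with *Slc11a1* at 77.6 within counting error, and *Steap4*, at 3.42, reached the level of *Tfrc* and *Slc11a2*.

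**Figure D2:**
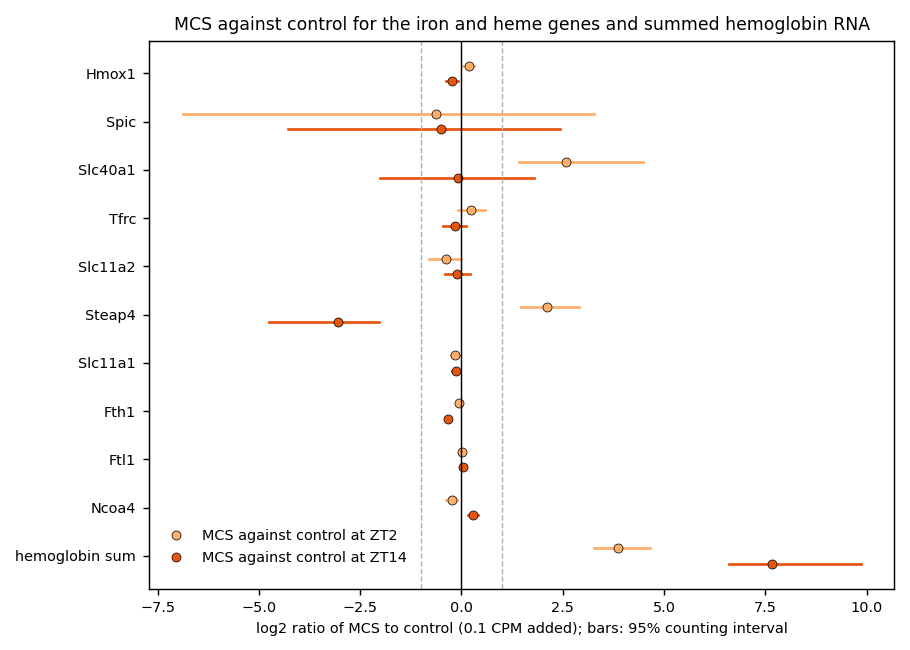
Log2 ratio of MCS to control at ZT2 and ZT14 for each iron and heme gene and for the sum of the hemoglobin genes, with 95% counting intervals as horizontal bars and dashed lines at a log2 ratio of 1 and -1. *Steap4* lay beyond a dashed line at both times in opposite directions and *Slc40a1* at ZT2, while the hemoglobin sum was at 3.87 and 7.67.

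At ZT14, 8 of the 10 genes had a log2 mean CPM above 0 and 1 of them, *Steap4*, was counted as changed, against 3.40% of the 12368 genes at that level. It was also the 1 member beyond 1.5-fold, a criterion passed by 12.1% of all genes. The counting interval excluded 0 for 6 members, *Ftl1* and *Ncoa4* above and *Hmox1*, *Slc11a1*, *Fth1* and *Steap4* below, against 37.6% of all genes, and this share grows with the number of reads of a gene. The median log2 ratio of the 10 members was -0.16, beside 0.00 over all genes, and the median absolute value of those above the minimum level was 0.203, beside 0.213.

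At ZT2, 9 of the 10 genes were above the minimum level and 2 of them, *Slc40a1* and *Steap4*, were counted as changed, both higher with MCS, against 2.21% of 12612 genes. No other member passed 1.5-fold, as did 7.78% of all genes. Intervals excluded 0 above for *Hmox1*, *Slc40a1* and *Steap4* and below for *Slc11a2*, *Slc11a1* and *Ncoa4*, against 22.5% of all genes. This share too grows with the number of reads of a gene, and the interval of *Slc11a2* only just excluded 0. The median log2 ratio of the 10 members was -0.02. In the edgeR test of an MCS effect common to both times, 0 of 9 members tested passed an adjusted p of 0.05, against 0.185% of 12404 genes. *Slc40a1* alone had an unadjusted p under 0.05 in this test, against 2.41% of all genes, with a log2 fold change of 1.63 and an adjusted p of 1.

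**Figure D3:**
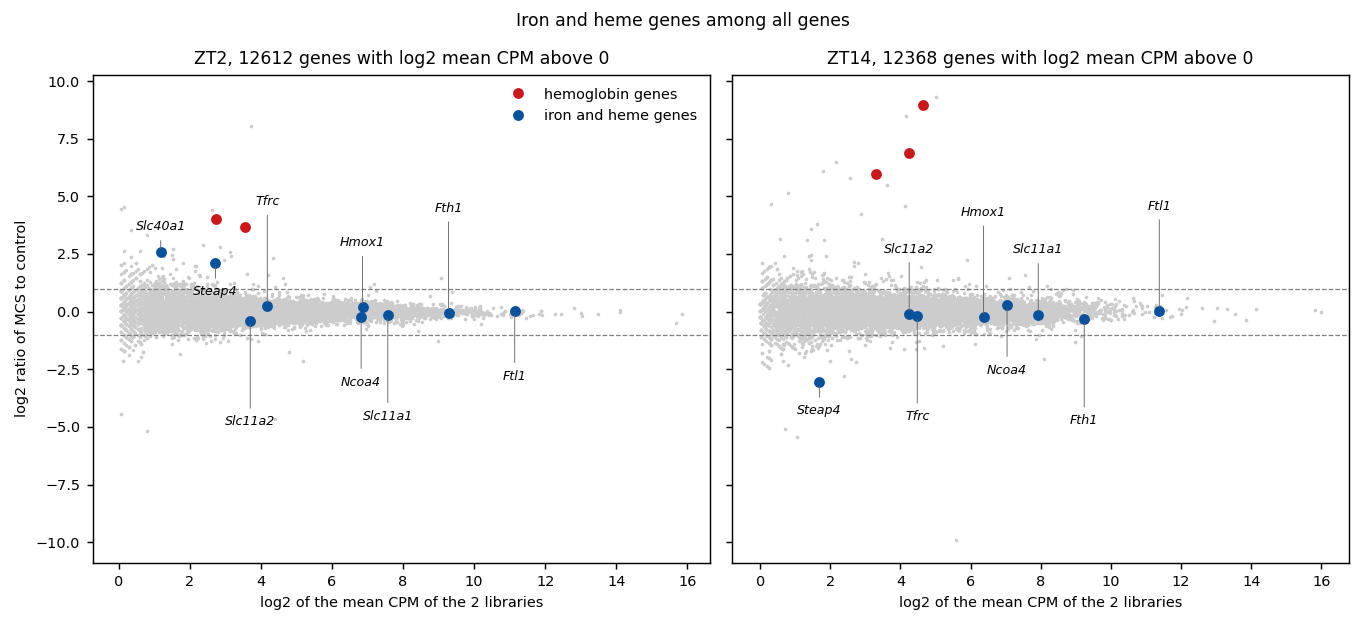
Log2 ratio of MCS to control against the log2 of the mean CPM of the 2 libraries, for all genes with a log2 mean above 0 (grey), the iron and heme genes (blue) and the hemoglobin genes (red), with dashed lines at 1 and -1. The abundant members lay within the grey band near 0 and the members outside it, *Steap4* and *Slc40a1*, had a mean over the 4 libraries of 4.91 and 1.45 CPM. *Hba-a2*, with 0 reads in control, is drawn with 0.1 CPM added.

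Both members that were counted as changed resembled neutrophil genes in being highest in MCS at ZT2. This peak was not particular to neutrophil genes. The T cell list and the fibroblast and mesothelial list also had their highest sums there, 33.1 and 28.0 CPM, beside 26.9 and 22.1 CPM in control at ZT2. Of 9 neutrophil markers in the table, 7 were above the minimum level at ZT2. Of these, 6 were counted as changed, all higher with MCS, against 2.21% of all genes. The markers summed to 33.1 CPM at ZT2 and 33.1 CPM at ZT14 without current, and 117 CPM at ZT2 and 18.9 CPM at ZT14 with MCS. *S100a9*, a subunit of the neutrophil protein calprotectin, had 6.70, 9.23, 33.5 and 1.23 CPM in the same order. *Ngp*, of neutrophil granules, had 0.462, 1.32, 11.9 and 0 CPM, and *Mpo*, the myeloperoxidase gene, had 2.43, 0.330, 15.2 and 0 CPM. At ZT14, 5 markers were above the minimum level. Of these, 1 was counted as higher and 2 as lower with MCS, against 3.40% of all genes counted as changed. *Camp*, *Ngp*, *Mpo* and *Elane* were all at 0 in MCS at ZT14, whereas *Retnlg* was higher with MCS at both times, with log2 ratios of 1.60 and 1.39. The sort removed Ly6G+ cells, and *Ly6g* was not among the genes with deposited values. The part of neutrophil RNA in the values of *Steap4* and *Slc40a1* was not tested.

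Among 12510 genes with a mean of at least 1 CPM, the gene with a profile nearest to that of *Steap4* over the 4 libraries was *S100a9*, at a root mean square distance of 0.39 in centred log2 CPM. *Shisa7* (0.43), *Prss23* (0.48), *Gm5803* and *Clec4g* (0.51 each) came next, and none of these was in the neutrophil list. Those nearest to *Slc40a1* were *Smarca1* (0.29), *Gzmb* (0.30) and *Lcn2* (0.34), followed by *S100a8* and *Cd101* (0.37 each). These were chosen after their values were seen, from 4 points each, and no member met the minimum level and range set for this comparison. *Lcn2* encodes a binder of iron-loaded siderophores and *Ltf* the iron-binding granule protein lactoferrin. They were the other iron genes counted as changed at ZT2, and both were highest in MCS at ZT2. Further iron genes, *Tfr2* and *Mcoln1* among them, were also highest there, at 1.39 and 32.4 CPM, and were not counted as changed. *Lcn2* had 1.73, 2.53, 7.19 and 1.84 CPM in the 2 control and then the 2 MCS libraries, ZT2 first, and *Ltf* had 1.15, 0.879, 9.28 and 0.511 CPM. At ZT2 MCS exceeded control by log2 ratios of 1.99 (95% interval 1.22 to 2.97) and 2.90 (2.05 to 4.12). Both products are stored in neutrophil granules.

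**Figure D4:**
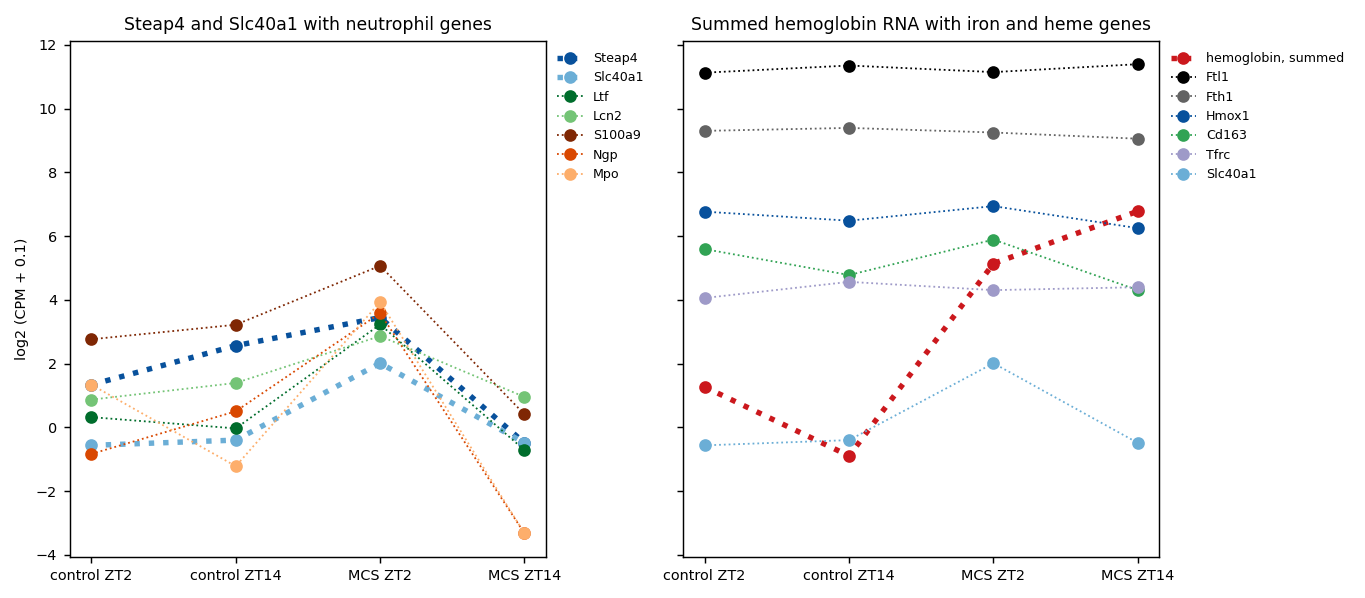
Log2 of CPM plus 0.1 in the 4 libraries for *Steap4* and *Slc40a1* with neutrophil genes and iron-binding granule proteins (left) and for the summed hemoglobin genes with members and *Cd163* (right). Dotted lines only guide the eye between libraries. On the left each gene peaked in MCS at ZT2, and on the right the hemoglobin sum was highest in MCS at ZT14, where *Hmox1* and *Cd163* were at their lowest.

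The wider pathway was described by further gene lists. Of 12 other genes of heme and hemoglobin uptake, transport and breakdown, 0 were counted as changed at either time, where 2.21% of all genes were at ZT2 and 3.40% at ZT14, so that a count of 0 in a list of this size is near the background. *Lrp1*, a receptor for heme bound to hemopexin among many ligands, had log2 ratios of MCS to control of -0.11 at ZT2 and 0.09 at ZT14, and *Slc48a1*, which carries heme out of the phagolysosome, had 0.01 and 0.09. *Cd163*, the receptor for hemoglobin bound to haptoglobin, had levels of 48.2 CPM at ZT2 and 27.4 CPM at ZT14 without current, and 59.3 CPM at ZT2 and 19.7 CPM at ZT14 with MCS. Like *Hmox1*, it was higher with MCS at ZT2, the log2 ratio being 0.30 (95% interval 0.11 to 0.49), and lower at ZT14, at -0.47 (-0.75 to -0.19). *Hp*, which encodes haptoglobin, had the highest log2 ratio of this list at ZT14, 0.65 (95% interval 0.49 to 0.82), with 53.5 CPM in control and 84.1 CPM in MCS. *Blvrb*, a biliverdin reductase gene downstream of heme oxygenase, had log2 ratios of -0.23 at ZT2 and 0.29 at ZT14, and *Hmox2*, the constitutive heme oxygenase gene, had 0.06 and -0.07.

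Genes that answer to heme or oxidants through BACH1 and NRF2, as *Hmox1* does, also gave 0 calls among the 9 above the minimum level at either time, near the background for so few genes. *Prdx1* and *Gpx4*, which encode peroxidases, had log2 ratios of -0.09 and 0.04 at ZT2 and of 0.13 and 0.36 at ZT14. At ZT14, 8 of the 9 genes had a log2 ratio above 0, with a median of 0.19 beside 0.00 over all genes, whereas *Hmox1* had -0.23. At ZT2, 4 were above and 5 below 0, with a median of -0.08, and *Hmox1* had 0.18. *Slc7a11*, the cystine importer gene, had opposite signs, with -0.60 at ZT2 (95% interval -1.13 to -0.09) and 0.65 at ZT14 (0.27 to 1.05). *Bach1* itself had 203, 238, 202 and 232 CPM in the 2 control and then the 2 MCS libraries.

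Iron regulation, heme synthesis and mitochondrial iron use gave no calls either, which in lists this short is again near the background of 2.21% and 3.40%. Of 9 genes of iron regulation above the minimum level, 0 were counted as changed, and *Herc2* and *Pcbp2*, a ubiquitin ligase gene and the gene of an iron chaperone, stayed between -0.13 and 0.07 on the log2 scale at both times. The iron regulatory protein genes *Aco1* and *Ireb2* had log2 ratios of -0.11 and -0.07 at ZT2 and of 0.17 and -0.12 at ZT14. The list of heme synthesis gave 0 calls of 11, with a median of -0.13 at ZT2 and 0.26 at ZT14. Its most abundant genes, *Fech*, which inserts the iron, and *Tmem14c*, a porphyrin carrier gene, had 0.01 and 0.48 at ZT14. Mitochondrial iron use gave 0 of 12, and *Hspa9*, a chaperone gene of iron-sulfur cluster assembly, had a log2 ratio of 0.18 at ZT14 (95% interval 0.06 to 0.30). Of other iron transport and storage genes, 0 of 10 were counted as changed at ZT14 and 2 of 11 at ZT2, *Lcn2* and *Ltf*. *Trf* and *Cp*, which encode the plasma iron proteins transferrin and ceruloplasmin, were the most abundant of them, and *Trf* lay between 3708 and 4246 CPM.

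**Figure D5:**
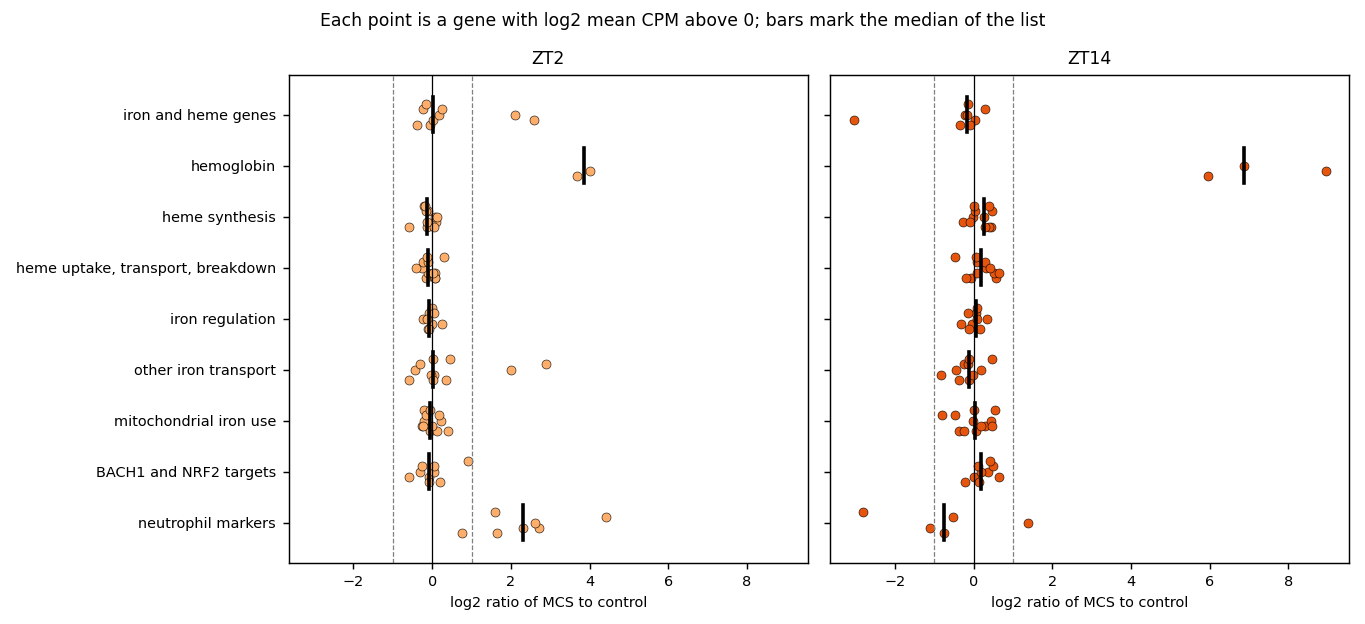
Log2 ratio of MCS to control for each gene with a log2 mean CPM above 0, by list, at ZT2 (left) and ZT14 (right), with black bars at the median of a list and dashed lines at 1 and -1. The plot holds 9 lists and leaves out the other red blood cell, B cell, T cell, fibroblast, hepatocyte and macrophage lists. Of the lists drawn, outside the hemoglobin genes and neutrophil markers, the points beyond a dashed line were *Steap4* at both times and *Slc40a1*, *Lcn2* and *Ltf* at ZT2.

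The members were also compared between times of day. In the control libraries 1 of 8 members above the minimum level was counted as changed, *Steap4*, with a log2 ratio of ZT2 to ZT14 of -1.23 (95% interval -2.07 to -0.51), against 3.61% of 12465 genes. Of these 8, 6 were lower at ZT2, *Tfrc* with -0.50 (95% interval -0.82 to -0.19), *Slc11a2* with -0.41 (-0.75 to -0.08) and *Slc11a1* with -0.35 (-0.44 to -0.26) among them. *Hmox1* and *Ncoa4* were the others, with 0.28 (0.15 to 0.42) and 0.05 (-0.08 to 0.17).

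In the MCS libraries 2 of 9 were counted as changed, against 5.83% of 12534 genes. These were *Steap4*, with a log2 ratio of ZT2 to ZT14 of 3.93 (95% interval 2.96 to 5.62), and *Slc40a1*, with 2.50 (1.42 to 4.23). *Hmox1* had 0.69 (0.56 to 0.83), *Slc11a2* had -0.70 (-1.07 to -0.34) and *Ncoa4* had -0.48 (-0.60 to -0.36). *Slc11a1* and *Ftl1* had -0.37 and -0.25, close to their control values of -0.35 and -0.22.

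The edgeR time term, over control and MCS together, passed an adjusted p of 0.05 for 0 of 9 members, against 2.18% of 12404 genes. An unadjusted p under 0.05 was seen for 4 members, against 10.2% of all genes. *Hmox1* was 0.49 higher at ZT2 on the log2 scale (adjusted p = 0.167), *Slc40a1* 1.63 higher (adjusted p = 0.284), *Slc11a2* had -0.55 (adjusted p = 0.283) and *Slc11a1* had -0.36 (adjusted p = 0.472). *Cd163* was 1.20 higher at ZT2 in the same edgeR test, with both ZT2 libraries above both ZT14 libraries, as was the case for *Hmox1*. Its list was chosen with earlier results of these data known, so no p-value is given for *Cd163*.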

How the data were processed

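RNA-seq of sorted mouse peritoneal macrophages was analysed in 4 libraries, with 1 library for each of control and MCS at ZT2 and ZT14. From 200 ng of RNA, rRNA-depleted strand-specific libraries were sequenced as 150 nt read pairs. Per the labels, the authors used Trimmomatic 0.38, RSEM 1.3.0 with Bowtie2, and edgeR, with mm10 as genome build. The deposited values are CPM scaled by edgeR for 15298 gene symbols without coordinates. Each value was a whole multiple of 1 read within 0.05 read (100% of values), and these reads were used for intervals and for the count test. RSEM estimates need not be whole, so any rounding by the authors is carried along.

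Groups were taken from the sample labels. Log2 ratios used a pseudocount of 0.1 CPM, a minimum log2 mean CPM of 0 and thresholds of 1 and of 1.5-fold. edgeR's quasi-likelihood test with additive time and MCS terms (1 residual degree of freedom, genes with at least 40 reads, Benjamini-Hochberg adjustment) was an alternative. Others were pseudocounts of 1 and 0.01 CPM, other minimum levels, rescaling to a median ratio of 1 and by TMM. The scripts were tested on simulated data. Coordinates, lengths and hairpin sites came from GENCODE M21. Near-identical copies were found with blastn 2.17.0 as alignments over most of a member's transcript. Python 3.11.15, pandas 2.3.3, scipy 1.17.1, R 4.3.3 and edgeR 4.0.16 were used.

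The members and all gene lists were chosen with earlier results of these data known. Genes named were the members, the hemoglobin genes and, from each other list, those past the criterion for MCS against control at either time and the 2 most abundant, of which 1 is not reported here. *Cd163*, *Hp*, *Hmox2*, *Blvrb*, *Bach1*, *Slc7a11*, *Aco1*, *Ireb2*, *Ngp*, *Camp*, *Elane*, *Vcam1* and *Alas2* were named after their values were seen or for their known role. Of the T cell, hepatocyte, and fibroblast and mesothelial lists, *Col1a2* and *Col3a1* passed the criterion at ZT14, with log2 ratios of 2.10 (95% interval 0.61 to 4.81) and 2.41 (1.13 to 4.63). The sums of the fibroblast and mesothelial list were 22.1, 6.04, 28.0 and 13.1 CPM, those of the T cell list 26.9, 17.5, 33.1 and 22.1 CPM, and those of the hepatocyte list 65.0, 49.2, 52.3 and 56.5 CPM, in the 2 control and then the 2 MCS libraries, ZT2 first. Of the B cell list, *Fcmr* passed at ZT14, with -1.41. The share over all genes above the minimum level at ZT14 was 3.40%.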

Additional observations from a re-analysis of the deposited data

Results flagged for a closer look

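The members *Steap4*, *Hmox1* and *Ncoa4* had a ratio of MCS to control of opposite sign at ZT2 and ZT14, with counting intervals on opposite sides of 0. The log2 ratio at ZT14 minus that at ZT2 was -5.16 for *Steap4* (95% counting interval -6.80 to -4.00), -0.41 for *Hmox1* (-0.60 to -0.22) and 0.53 for *Ncoa4* (0.35 to 0.70). With 1 library per condition the difference between the time points was not tested. The size differs widely, since *Steap4* went from 93 reads in MCS at ZT2 to 6 in MCS at ZT14, whereas *Hmox1* and *Ncoa4* stayed within 1.62-fold and 1.40-fold over the 4 libraries. Between the MCS libraries the neutrophil markers fell as *Steap4* did, with sums of 117 and 18.9 CPM, ZT2 first. Between the control libraries they did not move together. There the marker sum stayed level at 33.1 CPM, while *Steap4* rose from 2.43 CPM in the earlier library to 5.82 CPM in the later one. The part of neutrophil RNA in the values of *Steap4* was not tested.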

How the results depend on the processing

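Of 160 values of single members under the alternatives, 159 moved by less than their counting interval and 0 changed sign. *Steap4* for ZT2 against ZT14 in MCS moved from 3.93 to 2.87 with a pseudocount of 1 CPM. With a minimum log2 mean CPM of 3, and likewise in edgeR's test with additive terms, the number of members counted as changed went to 0 in all 4 comparisons, from 1 at ZT14, 2 at ZT2, 1 in control and 2 in MCS between the time points. The minimum removes *Steap4* and *Slc40a1* by construction, and the edgeR test asks for an effect common to both times or to both treatments. For the time points, it was chosen with the data already seen. A pseudocount of 1 CPM took the count between the time points in control to 0, and a threshold of 1.5-fold took that in MCS to 4. The summed hemoglobin ratio at ZT14 was 6.27 with a pseudocount of 1 CPM, where control had 4 reads. Rescaling by TMM or to a median ratio of 1 left these counts as they were, with the median log2 ratio of all genes at most 0.01. TMM took the count of genes called by edgeR from 23 to 24 for MCS and from 271 to 301 for time, and no minimum level took them to 43 and 380. No replicate could be left out with 1 library per condition. No paired analysis was possible because each condition has 1 library and the labels give no replicate numbers. The sum of *Ftl1* with its near-identical copies could not be formed, because none of the copies has a row in the table.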

Other observations

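The 10 members summed to 3339 CPM at ZT2 and 3806 CPM at ZT14 without current, and 3331 CPM at ZT2 and 3721 CPM at ZT14 with MCS, most of it ferritin. *Fbxl5*, which encodes the iron sensor that degrades iron regulatory protein 2, had 125, 69.9, 106 and 88.3 CPM in the same order, with a log2 ratio of MCS to control of -0.23 at ZT2 (95% counting interval -0.36 to -0.10) and 0.34 at ZT14 (0.19 to 0.49). *Nfe2l2*, the gene of NRF2, went the other way, with 0.24 at ZT2 (0.08 to 0.40) and -0.32 at ZT14 (-0.46 to -0.17). These genes were named after their values were seen, and none passed a log2 ratio of 1.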
